A study of Mus musculus with 22 samples.

Results

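The genes described here are 9 transcription factors of endodermal and ductal epithelium, Gata6, Foxa1, Foxa2, Foxa3, Hnf4a, Onecut2, Sox17, Sox9 and Pax9. They were taken by name, with earlier results of these data known, from a table of 17966 genes, and all 9 were present. The tissue was 22 tumours that grew in the mouse pancreas from implanted PDA.7940B cells, a polyclonal line of pancreatic ductal adenocarcinoma from KPC mice, a genetic model driven by a pancreatic Cre. The groups were beta-glucan given once at 1.2 mg into a vein (n = 6), anti-CD40 given once as 0.1 mg of the antibody FGK45 into the peritoneum (n = 6), both agents with no dose stated for this group (n = 5), and no treatment (n = 5). All tumours carry the genotype label WT, and treated tumours were taken 10 days after treatment. Strain, age, sex and whether each tumour came from its own mouse are not stated in the labels, and p-values therefore cover the spread over these samples alone. Beta-glucan, a fungal polysaccharide, is a ligand of the myeloid receptor Dectin-1, and anti-CD40 here is an agonist antibody to a receptor of dendritic cells, macrophages and B cells.

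Endodermal transcription factors set the identity of gut, liver and pancreas cells, and several of them open closed chromatin so that other factors can bind. In the adult pancreas Sox9 and Onecut factors mark ducts. In human pancreatic cancer, GATA6, HNF4A and FOXA genes are best known from the classical subtype, which keeps a glandular, gut-like programme.

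Tumours were read to a depth of 7.13 to 8.74 M reads (beta-glucan), 6.33 to 21.2 M (anti-CD40), 12.2 to 18.8 M (both agents) and 7.38 to 9.34 M (untreated). Values are normalized counts of reads from the 3' ends of transcripts. Epithelial markers were present in every tumour: Krt19 lay between 120.3 and 606 with both agents and between 2918 and 6328 untreated. Acinar enzymes, which mark normal exocrine pancreas, took 0.549 to 32.8% of reads with both agents, 0.584 to 61.2% with anti-CD40, 0.531 to 16.3% with beta-glucan and 0.0369 to 16.7% untreated. Untreated tumour 6 was the lowest or the highest of the untreated tumours in most of the 9 genes. By the size of its gap from the others, only its Foxa3 value stood out. The calls and larger shifts that rest on this tumour are given with and without it.

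The start sites of Hnf4a and Foxa2, which fell with both agents, are shown. The start of Foxa3 is shown because it did not pass the test in any comparison. Pax9 and Foxa1 also fell with both agents, and their windows, which hold no Onecut word, are not printed. The printed windows are thus a selection that holds every Onecut word found. Sequences are the RefSeq windows of 300 bases around gene starts on GRCm38.p6, read 5' to 3' along the gene's own strand. Of the 9 genes 5 had a window, with 8 windows in all. The words searched on both strands were ATTGATT and ATTGACT for Onecut factors, AGATAA for GATA factors, TGTTTAC and TGTTTGC for forkhead factors, CAAAGTCCA for Hnf4 and ACAATGG and ACAAAGG for Sox factors. Capitals mark a match, on either strand. The first Hnf4a window is chr2:163506607-163506906 on the plus strand. The second is chr2:163546905-163547204 on the same strand. Windows 1 and 3 of Foxa2 are chr2:148046920-148047219 and chr2:148045415-148045714 on the minus strand, and the Foxa3 window is chr7:19023490-19023789, also minus.
Hnf4a window 1: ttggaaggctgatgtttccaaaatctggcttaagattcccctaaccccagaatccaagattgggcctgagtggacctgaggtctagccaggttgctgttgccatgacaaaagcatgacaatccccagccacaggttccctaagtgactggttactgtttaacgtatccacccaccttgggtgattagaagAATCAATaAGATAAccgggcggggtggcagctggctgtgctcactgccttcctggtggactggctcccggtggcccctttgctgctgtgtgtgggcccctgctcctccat
Hnf4a window 2: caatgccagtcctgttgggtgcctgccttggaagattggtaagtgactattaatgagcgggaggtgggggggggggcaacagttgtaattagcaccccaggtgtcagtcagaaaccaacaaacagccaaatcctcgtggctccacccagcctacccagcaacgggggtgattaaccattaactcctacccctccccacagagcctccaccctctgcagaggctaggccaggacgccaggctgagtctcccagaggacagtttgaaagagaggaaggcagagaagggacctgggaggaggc
Foxa2 window 1: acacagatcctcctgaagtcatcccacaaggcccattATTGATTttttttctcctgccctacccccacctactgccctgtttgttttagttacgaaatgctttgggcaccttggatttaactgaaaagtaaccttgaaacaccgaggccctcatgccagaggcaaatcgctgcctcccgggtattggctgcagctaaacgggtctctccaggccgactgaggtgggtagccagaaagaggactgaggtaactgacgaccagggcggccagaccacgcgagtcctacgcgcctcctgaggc
Foxa2 window 3: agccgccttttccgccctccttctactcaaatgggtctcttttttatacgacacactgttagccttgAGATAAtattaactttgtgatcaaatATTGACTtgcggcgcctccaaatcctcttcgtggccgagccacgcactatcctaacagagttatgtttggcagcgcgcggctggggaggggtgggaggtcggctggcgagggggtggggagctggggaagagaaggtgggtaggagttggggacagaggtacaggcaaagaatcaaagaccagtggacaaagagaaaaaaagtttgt
Foxa3 window 1: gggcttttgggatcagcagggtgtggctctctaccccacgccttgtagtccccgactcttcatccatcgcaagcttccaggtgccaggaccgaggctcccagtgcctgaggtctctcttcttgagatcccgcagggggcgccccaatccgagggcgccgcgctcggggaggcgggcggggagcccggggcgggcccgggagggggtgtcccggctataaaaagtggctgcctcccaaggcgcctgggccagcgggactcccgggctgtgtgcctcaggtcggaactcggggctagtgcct
The first Hnf4a window holds an Onecut word on its minus strand at bases -60 to -54 from the start, and the GATA word at -52 to -47. No base is shared between them. Foxa2 window 3 also holds a GATA and an Onecut word, in the other order and both on the plus strand: AGATAA at -183 to -178 and ATTGACT at -157 to -151. The Onecut word of Hnf4a window 1 is instead ATTGATT, and Foxa2 window 1 holds an Onecut word at -213 to -207. The second Hnf4a window, the Foxa3 window and Foxa2 window 2 (chr2:148045899-148046198, minus strand, not printed) hold none of the words. Among 32851 windows of all genes, 4.65% hold an Onecut word, 11.2% the GATA word, 8.48% a forkhead word, 0.475% the Hnf4 word and 9.28% a Sox word. A forkhead word was found in the windows of Foxa1 and Pax9, which hold no Onecut word. Over the tumours, Pearson's r of log2 levels with Onecut2 was 0.93 for Pax9, 0.90 for Hnf4a and 0.81 for Foxa2. Whether the words have a part in these levels was not tested. A match describes the letters of the window and no binding.

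Onecut2, a cut-homeodomain factor of pancreatic and hepatic progenitors in the mouse, had counts in treated tumours that lay mostly below those of untreated tumours. The 6 beta-glucan tumours had a lowest, median and highest normalized count of 6509, 15068 and 17386. The 6 anti-CD40 tumours had 1843, 8076 and 13081. The 5 tumours given both agents had 1938, 1338, 3259, 534 and 501, against 31781, 33600, 26026, 33209 and 13754 in the 5 untreated tumours. Every tumour given both agents lay below every untreated tumour and below every beta-glucan tumour, and every anti-CD40 tumour lay below every untreated one. In 8 of the 9 genes the mean log2 level was lowest with both agents, next with anti-CD40, next with beta-glucan and highest in untreated tumours, and Foxa3 was the exception, with beta-glucan lowest. Beta-glucan and anti-CD40 tumours were not tested against each other, and their Onecut2 levels overlapped. Onecut2 took 0.00328 to 0.0318% of a tumour's reads with both agents and 0.122 to 0.458% untreated.

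**Figure D1:**
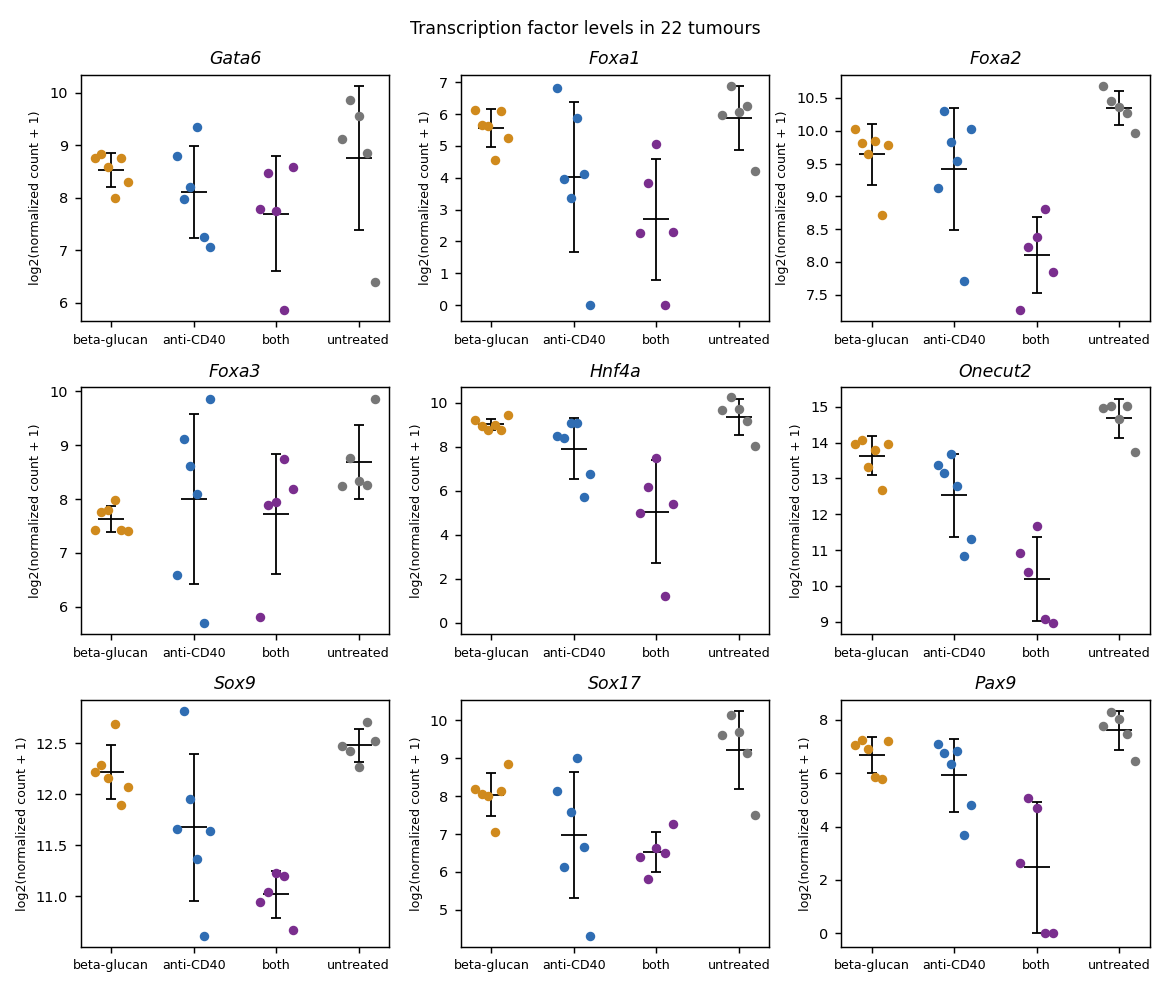
Level of each of the 9 genes in each tumour, as log2(normalized count + 1) on the vertical axis, by treatment on the horizontal axis (both means beta-glucan with anti-CD40). Points are tumours, and bars are the mean and SD over 6, 6, 5 and 5 tumours. Onecut2, Foxa2, Sox9, Hnf4a, Pax9 and Sox17 show no overlap between tumours given both agents and untreated tumours, while Gata6, Foxa1 and Foxa3 overlap.

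Both agents together lowered most of the 9 genes against untreated tumours. Onecut2, Hnf4a and Pax9 fell furthest, Foxa2, Sox17 and Foxa1 fell less steeply, and Sox9 fell least. Of the 9 genes 7 were lower and 0 were higher, where 15.8% of all 14278 genes tested were lower and 18.2% higher. Without overlap between the groups, 6 of the 9 were lower, against 10.3% of all genes tested. The median log2 fold change over the 9 genes was -2.68, and over all genes tested it was -0.01. Because the 9 genes were chosen with earlier results of these data known, these shares and medians, here and below, are a description only. The test was limma on log2(normalized count + 1), with the Benjamini-Hochberg adjustment over all genes tested and a threshold of 0.05.

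Onecut2 fell 22.4-fold with both agents (log2 fold change -4.48 ± 0.54, SE, adjusted p = 2.1e-06). Foxa2, a forkhead factor that opens chromatin in foregut endoderm, had 153, 298, 333, 448 and 229.9 with both agents, against 1647, 1397, 1317, 1237 and 995 untreated. It fell 4.72-fold, by 2.24 ± 0.36 on the log2 scale (adjusted p = 4.61e-05), with no overlap between the groups. Hnf4a, a nuclear receptor that drives liver, gut and pancreatic epithelial genes, had 30.2, 70.0, 177.6, 1.33 and 40.7 with both agents, against 800.3, 1205, 822, 568.2 and 262 untreated. The 1.33 of tumour 4 given both agents was 1 read. The Hnf4a fall was 19.9-fold (log2 fold change -4.31 ± 0.83, adjusted p = 0.000431), again without overlap. The size rests on single tumours: it was -3.36 without tumour 4 given both agents and -4.92 without tumour 3, and the call held in both.

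Pax9, a paired-box factor of pharyngeal and foregut epithelium, had 5.14, 32.9, 25.0, 0 and 0 with both agents, against 215.5, 314, 259.7, 175 and 86.4 untreated. In tumours 4 and 5 given both agents no Pax9 read was found, and a floor of 3 reads there is a normalized count of 3.98 and 2.91, for counting error only. The log2 fold change was -5.12 ± 0.84 (adjusted p = 5.71e-05), and it was -5.55 with a pseudocount of 0.5 and -3.63 with a pseudocount of 8. It was -4.50 without either of both-agent tumours 4 and 5, and -5.77 without tumour 2. Every tumour given both agents was below every untreated one. Foxa1, a second forkhead factor of endoderm, had 3.86, 13.4, 32.5, 0 and 3.88 with both agents, against 61.6, 118, 65.8, 75.6 and 17.5 untreated. The groups overlap, since both-agent tumour 3 lies above untreated tumour 6. Its log2 fold change was -3.18 ± 0.95 (adjusted p = 0.0115), -2.51 without both-agent tumour 4 and -3.78 without tumour 3, and with the acinar level as a covariate it did not pass (adjusted p = 0.152).

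Sox9, a factor of pancreatic progenitors and of adult ducts, had 1973, 2115, 2398, 2355 and 1628 with both agents, against 5680.3, 5488, 4931, 6708 and 5868 untreated. These groups did not overlap and their spread was small. The fall was 2.75-fold, by 1.46 ± 0.26 on the log2 scale (adjusted p = 0.000107). Sox17, which specifies endoderm and is also a factor of bile duct and arterial endothelium, had 83.6, 55.4, 98.4, 90.3 and 154 with both agents, against 780.3, 1126, 822, 559 and 180.3 untreated. It fell 6.42-fold (log2 fold change -2.68 ± 0.63, adjusted p = 0.00207), and the nearest pair of tumours was 154 against 180.3.

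Gata6, a zinc finger factor of endoderm and pancreas, had 219, 355, 213, 57.1 and 384 with both agents, against 554, 929.6, 746, 460.5 and 82.6 untreated. Its log2 fold change was -1.06 ± 0.56 (95% interval -2.23 to 0.11, adjusted p = 0.156). Without untreated tumour 6 the log2 fold change was -1.65 ± 0.46 and passed (adjusted p = 0.00793), and Gata6 also passed by DESeq2 with all tumours (-1.17, adjusted p = 0.0424). Foxa3, another forkhead gene of endoderm, had 55.3, 237, 244, 428 and 290.0 with both agents, against 304, 431, 322, 307 and 929 untreated. Its log2 fold change was -0.98 ± 0.61 (95% interval -2.25 to 0.29, adjusted p = 0.233), and -0.69 ± 0.64 without untreated tumour 6. With values scaled to equal totals, which lowers the median gene by 0.45, Foxa3 was at -1.43 (adjusted p = 0.0167).

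**Figure D2:**
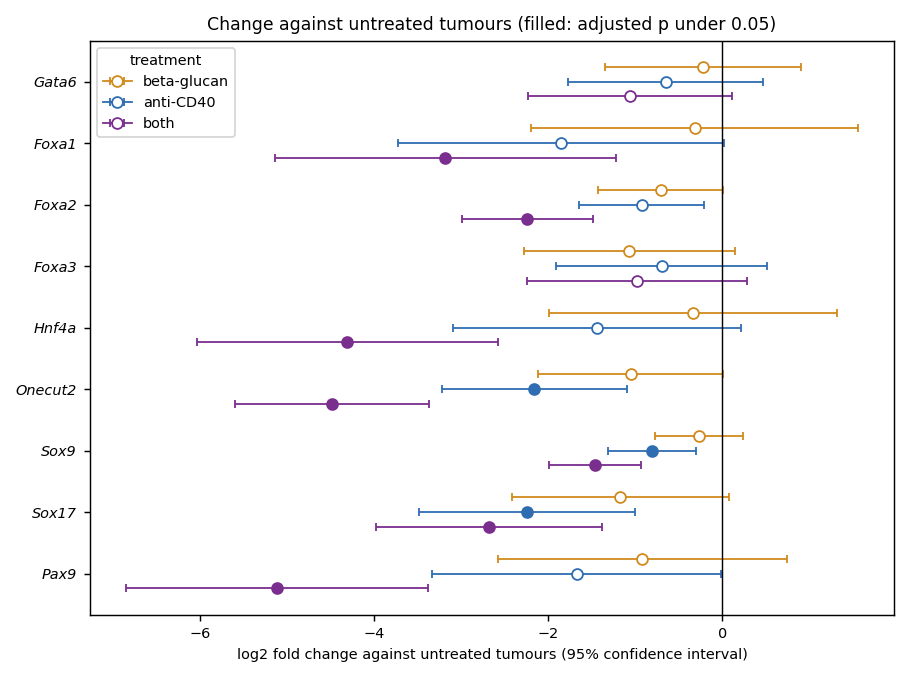
Log2 fold change of each gene against untreated tumours on the horizontal axis, with its 95% interval from limma, for beta-glucan, anti-CD40 and both agents. Filled points passed the adjusted threshold of 0.05: 0 of 9 with beta-glucan, 3 of 9 with anti-CD40 and 7 of 9 with both agents.

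Anti-CD40 alone lowered Onecut2, Sox17 and Sox9, and the other 6 genes did not pass the test. The 3 genes called lower stand beside 7.56% of all genes tested. The median over the 9 genes was -1.44, against 0.00 over all genes tested. Onecut2 fell 4.47-fold (log2 fold change -2.16 ± 0.51, adjusted p = 0.00515) without overlap. With the acinar level as a covariate neither Onecut2 (-1.57 ± 0.56, adjusted p = 0.0748) nor Sox17 (-1.41 ± 0.63, adjusted p = 0.156) passed with anti-CD40, and Sox9 did (adjusted p = 0.0386). Only 4.08% of all genes tested had every anti-CD40 tumour below every untreated one, and Onecut2 was the 1 member that did.

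Anti-CD40 tumours spread more widely than tumours given both agents in Sox17 (SD of log2 level 1.65 against 0.52) and in Sox9 (0.72 against 0.23). The same held for Foxa1, Foxa2 and Foxa3. The spread was narrower with anti-CD40 in Pax9 (1.37 against 2.45), Hnf4a (1.37 against 2.34) and Gata6 (0.87 against 1.09), and alike in Onecut2 (1.17 in both). With anti-CD40, Sox17 had a lowest, median and highest count of 19.0, 145.6 and 513, against 780.3, 1126, 822, 559 and 180.3 untreated. The groups overlapped through untreated tumour 6, and the log2 fold change was -2.24 ± 0.60 (adjusted p = 0.0113). Without the 2 anti-CD40 and 2 both-agent tumours over 30% acinar reads it was -1.37 ± 0.49 (adjusted p = 0.0558). Sox9 had 1569, 3215 and 7183 with anti-CD40, against 4931 to 6708 untreated, and anti-CD40 tumour 2 held the 7183. The log2 fold change was -0.80 ± 0.25 (adjusted p = 0.0235), and it did not pass without anti-CD40 tumour 5 (-0.59, adjusted p = 0.0628) or without untreated tumour 5 (-0.74, adjusted p = 0.0636), nor by edgeR (-0.66, adjusted p = 0.0719).

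The members that missed the threshold with anti-CD40 had negative estimates. Foxa2 had 208, 823 and 1261, against 995 to 1647 untreated (log2 fold change -0.93 ± 0.35, adjusted p = 0.0651). It passed without anti-CD40 tumour 2 (-1.10, adjusted p = 0.0284) or 6 (-1.05, adjusted p = 0.0471). Hnf4a had 51.9, 341 and 544, against 262 to 1205 (-1.44 ± 0.79, adjusted p = 0.227). Pax9 had 11.8, 94.3 and 136, against 86.4 to 314 (-1.67 ± 0.80, adjusted p = 0.156). Foxa1 had 0, 15.6 and 112, against 17.5 to 118 (-1.85 ± 0.91, adjusted p = 0.165). Anti-CD40 tumours 5 and 6 were the lowest in Onecut2, Hnf4a, Pax9 and Gata6. Gata6 had 133, 271 and 646, against 82.6 to 929.6 (-0.65 ± 0.54, adjusted p = 0.448), and Foxa3 had 51.1, 331 and 932, against 304 to 929 (-0.70 ± 0.59, adjusted p = 0.45). Without untreated tumour 6, Gata6 with anti-CD40 was at -1.24 ± 0.45 (adjusted p = 0.0538) and Foxa3 at -0.41 ± 0.62.

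Beta-glucan alone gave no call among the 9 genes, with 1.32% of all genes tested called lower. All 9 estimates were negative, with a median of -0.71 against 0.02 over all genes tested. By an unadjusted p under 0.05, by edgeR and by DESeq2 the count was also 0. Sox17 had a lowest, median and highest count of 132, 273 and 460.0, against 180.3 to 1126 untreated (log2 fold change -1.17 ± 0.60, adjusted p = 0.298). Onecut2 stood at -1.05 ± 0.51 (adjusted p = 0.269). Foxa2 had 419, 889 and 1037 against 995 to 1647 (-0.71 ± 0.35, adjusted p = 0.268).

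Foxa3 had 167.7, 193 and 251 with beta-glucan, against 304 to 929 untreated (-1.07 ± 0.59, adjusted p = 0.339). All 6 beta-glucan tumours lay below every untreated tumour in Foxa3, as in 2.87% of all genes tested. With the acinar level as a covariate Foxa3 was the 1 gene of the 9 called with beta-glucan (-1.55 ± 0.44, adjusted p = 0.0327). Hnf4a, at 433, 496 and 687 with beta-glucan, had an interval of -1.99 to 1.32, and Gata6, at 254, 405 and 452, one of -1.34 to 0.90. Sox9, at 3798, 4662 and 6580, had the narrowest interval, -0.77 to 0.24. Pax9 had 54.6, 125.7 and 150.7 (-0.92 ± 0.80), and Foxa1 had 22.8, 49.2 and 69.6 (-0.32 ± 0.91). Without untreated tumour 6 the beta-glucan estimates were -0.81 for Gata6, -0.73 for Foxa1, -0.67 for Hnf4a and -1.60 for Sox17, and none of the 9 genes passed.

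Adding anti-CD40 to beta-glucan lowered Onecut2, Pax9, Hnf4a, Foxa2, Sox9 and Foxa1. These 6 of 9 genes stand beside 7.61% of all genes tested that were lower with both agents than with beta-glucan. In Onecut2, Pax9, Hnf4a and Sox9 every both-agent tumour lay below every beta-glucan tumour, as in 5.80% of all genes tested. Onecut2 was 10.8-fold lower (log2 fold change -3.43 ± 0.51, adjusted p = 0.000396). Hnf4a was 15.7-fold lower (-3.97 ± 0.79, adjusted p = 0.00265), and it was at -3.02 without both-agent tumour 4 and -4.58 without tumour 3. Pax9 stood at -4.20 ± 0.80 (adjusted p = 0.00157), Foxa2 at -1.53 ± 0.35 (adjusted p = 0.00508) and Sox9 at -1.20 ± 0.25 (adjusted p = 0.00243). Pax9 was at -3.58 without either of both-agent tumours 4 and 5 and at -4.85 without tumour 2. Foxa1 stood at -2.87 ± 0.91 (adjusted p = 0.0357), and it did not pass by edgeR (-2.18, adjusted p = 0.0861) or without the tumours over 30% acinar reads (-1.83, adjusted p = 0.128). Leaving out any 1 of beta-glucan tumours 1, 2, 3, 5 and 6 or of both-agent tumours 1, 4 and 5 ended the Foxa1 call (adjusted p 0.0537 to 0.125). Foxa3 was at 0.09 ± 0.59 (interval -1.13 to 1.30), and Gata6 at -0.84 ± 0.54 (adjusted p = 0.324). Sox17 stood at -1.51 ± 0.60 (adjusted p = 0.0948), and it passed without anti-CD40 tumour 6 (adjusted p = 0.0287) and by DESeq2 (adjusted p = 0.0195).

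Adding beta-glucan to anti-CD40 gave 2 calls, Onecut2 (log2 fold change -2.32 ± 0.51, adjusted p = 0.0308) and Pax9 (-3.44 ± 0.80, adjusted p = 0.0347). By edgeR the 2 genes called were instead Onecut2 (adjusted p = 0.0348) and Foxa2 (-1.44, adjusted p = 0.0361), and Pax9 did not pass (-2.61, adjusted p = 0.084). Of all genes tested 0.826% were lower. Of all genes tested 0.497% had every tumour given both agents below every anti-CD40 tumour, and 0 of the 9 did: both-agent tumour 3 held 3259 Onecut2 and 25.0 Pax9, while anti-CD40 tumour 5 held 1843 and 11.8. The Onecut2 call ended without any 1 of anti-CD40 tumours 1, 2, 3 and 4 or both-agent tumours 1, 2, 4 and 5 (adjusted p 0.0522 to 0.0851). The Pax9 call ended without any 1 of anti-CD40 tumours 1 to 4 or both-agent tumours 1, 4 and 5 (adjusted p 0.0611 to 0.0956). Without anti-CD40 tumour 5, Foxa2 at -1.66 (adjusted p = 0.00119), Hnf4a at -3.31 (adjusted p = 0.0164) and Sox9 at -0.87 (adjusted p = 0.0169) also passed. The share of all genes called in that fit is not given here. With all tumours, Foxa2 stood at -1.31 ± 0.35 (adjusted p = 0.0551) and Hnf4a at -2.87 ± 0.79 (adjusted p = 0.071). Hnf4a also passed without both-agent tumour 3 (adjusted p = 0.0227), and Foxa2 without beta-glucan tumour 5 (adjusted p = 0.0455).

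The interaction asks whether both agents together moved a gene by more or by less than the sum of the single effects on the log2 scale. None of the 9 genes passed by limma, by edgeR or by DESeq2, and 0.0210% of all genes tested were called. By an unadjusted p under 0.05 there were 2: Hnf4a at -2.53 ± 1.12 (adjusted p = 0.546) and Pax9 at -2.52 ± 1.13 (adjusted p = 0.546). The 0.0210% is for the adjusted threshold, and the share of all genes at the unadjusted one is not given here. The Onecut2 interval was -2.78 to 0.24, and the Sox17 interval -1.03 to 2.48.

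Foxa1 and Foxa2 passed the test with both agents and Foxa3 did not, and the difference between these genes was not tested. Within the same tumours, the Foxa3 read count was 36.1 to 126% of the Foxa2 count with both agents (median 79.4%), against 18.4 to 93.3% untreated (median 24.8%). It was 16.5 to 40.5% with beta-glucan and 17.1 to 89.1% with anti-CD40. The 93.3% was untreated tumour 6, which also held the highest Foxa3 count of its group. No test was run on this ratio, which follows the unequal changes of the 2 genes.

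**Figure D3:**
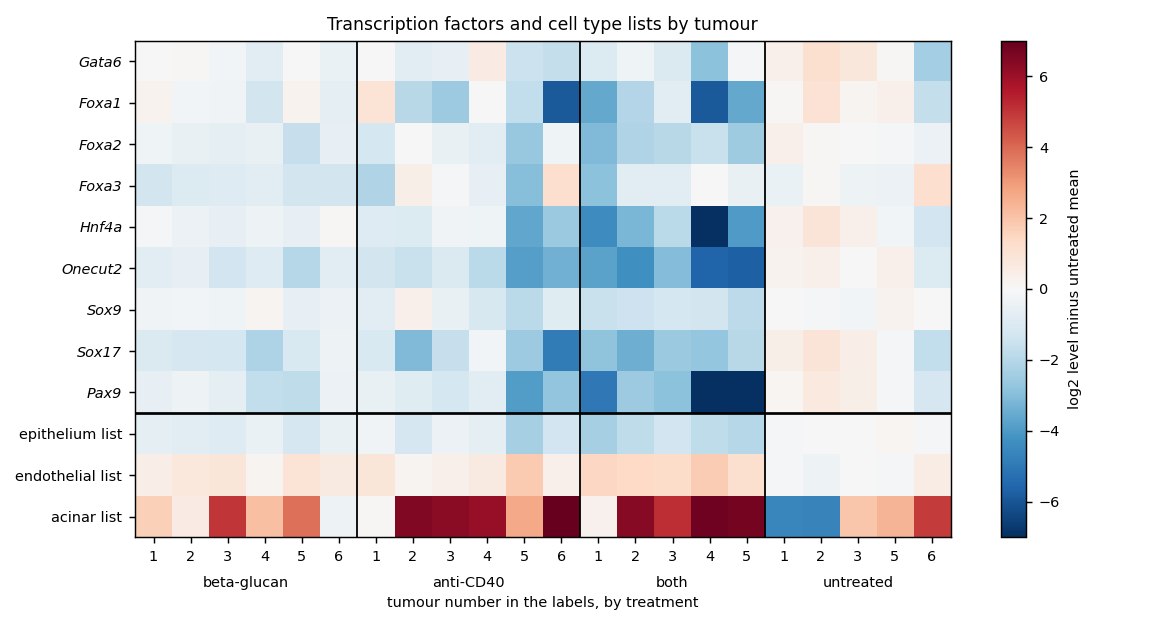
Log2 level of each gene (upper rows) and mean log2 level of 3 marker lists (lower rows) in each tumour, minus the mean of untreated tumours; columns are tumours by treatment. Colours stop at 7 in either direction. Blue cells of Onecut2, Hnf4a and Pax9 gather under both agents, the epithelium list is blue there too, and the endothelial list is red; acinar levels vary within each group.

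Over the 22 tumours the 9 genes formed pairs of unequal likeness, given here as a description because tumours share treatment and tissue make-up. Pearson's r of log2 levels was 0.93 for Onecut2 with Pax9, 0.92 for Hnf4a with Pax9 and 0.90 for Hnf4a with Onecut2. After group means were subtracted these were 0.82, 0.79 and 0.76. The median over all 36 pairs was 0.67, and 0.38 after subtraction. Within groups Gata6 went with Foxa1 (0.70), Hnf4a (0.73) and Sox17 (0.68), while Foxa2 went with Foxa3 (0.73) and Sox9 (0.74). Foxa1 and Foxa3 ran opposite within groups (-0.52), and 11 of the 36 pairs were negative.

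The genes with the pattern most like each member were found among 13492 genes by r over the 22 tumours. For Onecut2 they included Igsf9 and the ductal keratin Krt19, each at 0.98. For Hnf4a they were Mboat1 (0.96), Aldh3a1 (0.96) and Gldc (0.95). For Pax9 they were Adam28, Cdh6 and Prss12 (0.94 each), and for Sox9 Cadm1 (0.96), Bend7 (0.93) and the chloride cotransporter Slc12a2 (0.93). For Gata6 they were Mgst3 (0.96), Acp1 and Bcar1 (0.95 each). For Foxa1 they were the integrin Itgb6 (0.95), Serpinb5 and Gpa33 (0.93 each), and for Foxa2 Pllp, Grb7 (0.93 each) and Ociad2 (0.92). For Foxa3 they were Hgfac (0.94), Spdef, a factor of secretory epithelium (0.89), and Gjb1 (0.89), and for Sox17 Adgrg2 (0.93), Ripply3 and Tcf23 (0.89 each).

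Other endodermal and epithelial transcription factors fell with both agents in part. Of 23 tested (27 of 30 listed were in the table), 12 were lower and 3 higher, with a median of -1.21. Klf5, a Krüppel-like factor of gut epithelium, fell to 363 ± 153.6 (SD, n = 5) with both agents, against 5634 ± 1097 (n = 5) untreated. Its log2 fold change was -4.02 ± 0.38 (adjusted p = 7.81e-08). Elf3, an epithelial ETS factor, stood at -3.48 ± 0.44 (adjusted p = 2.31e-06), and the forkhead gene Foxq1 at -4.97 ± 0.61 (adjusted p = 3.1e-06). Onecut3, a relative of Onecut2, was at 8.19 ± 11.02 with both agents, against 638 ± 124 untreated (-7.15 ± 1.06, adjusted p = 2.38e-05).

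The 3 that rose were Prox1, Barx1 and Onecut1, named after their values were seen. Onecut1, the hepatocyte nuclear factor also called HNF-6, rose to 43.3 ± 24.1 with both agents, against 10.1 ± 12.9 untreated (log2 fold change 2.65 ± 0.77, adjusted p = 0.00942). Onecut1 did not pass with the acinar (1.65, adjusted p = 0.14), epithelium or endothelial level as a covariate or by edgeR (2.09, adjusted p = 0.0584), and its estimate was above 0 under every scaling tried, while those of Onecut2 and Onecut3 were below 0. Prox1, a factor of endocrine, hepatic and lymphatic cells, was at 2.09 ± 0.47 (adjusted p = 0.00136), and Barx1, of stomach mesenchyme, at 2.93 ± 0.74 (adjusted p = 0.00436). With anti-CD40, 10 of the 23 were lower and Prox1 was higher. With beta-glucan, Klf4, Klf5, Elf3 and Foxq1 were lower and Prox1 was higher.

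The genes around these factors moved as well. With both agents 14 of 20 epithelial genes were lower and 2 higher (median -2.16). Krt19 stood at -4.31 ± 0.54 (adjusted p = 3.46e-06), the cell adhesion gene Cdh1 at -3.03 ± 0.36 (adjusted p = 1.2e-06), and Epcam at -2.02 ± 0.42 (adjusted p = 0.000637). Of 15 duct genes 9 were lower and 2 higher, with the chloride channel Cftr at -5.49 ± 0.71 (adjusted p = 6.21e-06). Of 18 tested genes of the classical and gastric-like programme 15 were lower and 0 higher (median -4.54), among them Gcnt3, a mucin-branching enzyme (-6.32 ± 0.75, adjusted p = 1.79e-06), and Cldn18, a gastric claudin (-7.59 ± 1.04, adjusted p = 1.5e-05). Of 12 squamous and basal-like genes 8 were lower and 2 higher, and of 10 mesenchymal genes 1 was lower and 4 higher.

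The summed epithelium list lay between 8141 and 15273 with both agents and between 51078 and 64190 untreated, without overlap. In bulk tumours, fewer cells of a type and less RNA per cell cannot be told apart. Against the mean log2 level of the epithelium list, Onecut2 stood 2.14 ± 1.12 (SD, n = 5) above it with both agents and 4.78 ± 0.50 (n = 5) untreated. Hnf4a was at -3.03 ± 2.25 with both agents and -0.56 ± 0.81 untreated, and Pax9 at -5.59 ± 2.32 with both agents and -2.31 ± 0.69 untreated. Sox9 was at 2.95 ± 0.29 with both agents and 2.57 ± 0.15 untreated, and Foxa2 at 0.04 ± 0.39 with both agents and 0.44 ± 0.28 untreated. Gata6 was at -0.38 ± 1.19 with both agents and -1.16 ± 1.34 untreated, and Foxa3 at -0.35 ± 0.92 and -1.22 ± 0.74. Foxa1 was at -5.37 ± 1.75 with both agents and -4.03 ± 0.95 untreated, and Sox17 at -1.54 ± 0.66 and -0.70 ± 0.99. With that level as a covariate in limma, 0 of the 9 genes passed in any comparison, with Onecut2 at -2.01 ± 0.71 for both agents (adjusted p = 0.286). The epithelial level and the treatment cannot be told apart between these groups.

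**Figure D4:**
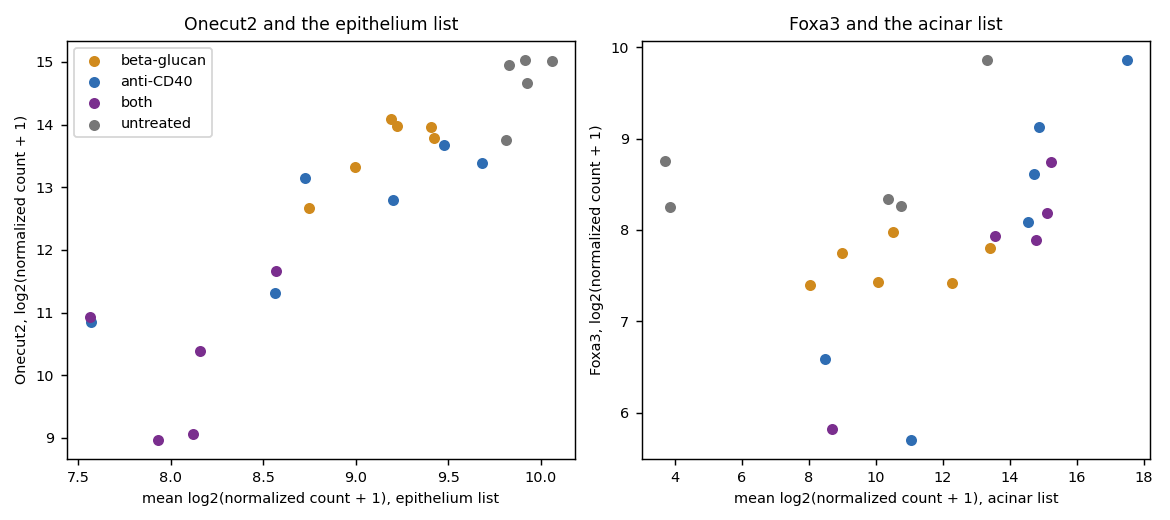
Left, Onecut2 level against the mean level of the epithelium list; right, Foxa3 level against the mean level of the acinar list. Axes are log2(normalized count + 1), and points are the 22 tumours by treatment. Over all tumours r was 0.90 on the left and 0.37 on the right; within groups it was 0.68 and 0.69.

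Markers of other cell types moved with the treatments. With both agents 21 of 21 tested leukocyte genes were higher (Ptprc 5.66-fold), 9 of 10 fibroblast genes were higher, and 14 of 19 endothelial genes were higher and 1 lower (Pecam1 3.99-fold, Cdh5 2.74-fold). Sox17 is also a gene of endothelium, and it fell while that list had a median of 1.53. The 1 lower gene of the list was Efnb2 (log2 fold change -2.61), which was also lower with anti-CD40. Sox18, Gja5 and Sema3g of the list were not tested. The summed endothelial list was 7752 to 15560 with both agents and 3101 to 5885 untreated. Of 27 acinar genes 7 were higher (Cela2a log2 fold change 6.68 ± 2.23), and of 19 islet genes 10 were higher and 1 lower (Chga 5.37 ± 1.17 on that scale). Of 11 hepatocyte genes 1 was lower and 0 higher, and Alb was at 0.12 ± 1.39 on that scale. With the endothelial level as a covariate 0 of the 9 genes passed in any comparison, and the endothelial level, which did not overlap between tumours given both agents and untreated tumours, cannot be told apart from that treatment. With anti-CD40, 11 of the 20 epithelial genes were lower, 19 of 21 leukocyte genes were higher, and 10 of 19 endothelial genes were higher and 1 lower. With beta-glucan, 4 of the 20 epithelial genes were lower and 1 higher, and 12 of 21 leukocyte genes were higher. Of all genes tested, 7.56% were lower with anti-CD40 and 1.32% with beta-glucan, and the shares called higher are not given here. The part of leukocyte, fibroblast and islet content in the members' values was not tested.

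Acinar content varied within each group, so its relation to the members could be read there. Foxa3 went with the acinar list within groups (r = 0.69) and Sox17, Foxa1 and Gata6 ran against it (-0.48, -0.45 and -0.40). With the acinar level as a covariate, 7 of the 9 genes were lower with both agents: Foxa1 no longer passed, and Foxa3 did (-2.14 ± 0.52, adjusted p = 0.00362). Foxa3 also passed with anti-CD40 in that fit (-1.87 ± 0.50, adjusted p = 0.0168). Without the 4 tumours over 30% acinar reads, 7 of 9 were lower with both agents, with Onecut2 at -3.69 ± 0.51 (adjusted p = 4.44e-05) and Hnf4a at -3.15 ± 0.67 (adjusted p = 0.00198). Shares of all genes called in these fits are not given here.

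Several members overlap other annotated genes, and the labels do not say whether counting used strand. Hnf4aos, antisense to Hnf4a, was between 0 and 10.6 in every tumour, and 1010001N08Rik, antisense to Gata6, between 0 and 9.58. Slc25a21, which overlaps Pax9 on the other strand, was at 0 in every tumour given both agents and between 4.39 and 46.3 untreated. The overlapping reads of Pax9 and Slc25a21 cannot be told apart.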

How the data were processed

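The values deposited by the authors are a signal, read counts per gene scaled by a size factor of each tumour (normalized counts). Per the labels' protocols, libraries were QuantSeq forward libraries from 100 ng of RNA of formalin-fixed sections of 5 µm. Per the submitters' processing notes, STAR, mm10 and DESeq2 were used, with no versions given. The counting program, annotation and strand setting are not stated there. Replicates were not pooled, and columns without a sample numbered 0.

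Values were whole multiples of 1 step per tumour (100.0% of 395252 values within 0.001 reads), which gave reads for the count tests and the depth of 6.33 to 21.2 M. In 2 tumours that step was within 1% of 1, so it shows less there. Tumours of 1 group always differed by more than sampling noise (lowest chi-square per degree of freedom 12.7 over 50 pairs). Of the 17966 gene symbols, 17699 matched GENCODE M21 (GRCm38).

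Genes with at least 10 in at least 5 tumours (14278, all 9 members) were tested with limma 3.58.1 in R 4.3.3 on log2(value + 1), on 4 group means with trended, robust moderation, two-sided, adjusted within each contrast. A log2 fold change is on that scale, a fold is 2 to its size, and ± after it is the SE. Levels carry the SD. Alternatives were pseudocounts, no filter, equal totals, quantile normalization, edgeR 4.0.16 and DESeq2 1.42.0 on recovered reads, list levels as covariates, a replicate block, only the groups compared, and leaving tumours out. In simulated anti-CD40 against untreated data of 13920 genes, 13 of 50 genes changed 2-fold were called. At 4-fold, 8-fold and 16-fold 49 of 50 were called, with 3 unchanged genes called. In the measured data the SE of this comparison ran from 0.25 (Sox9) to 0.91 (Foxa1) among the 9 members. Recovery at the spread of each member was not tested.

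Named genes are the members, the 3 genes most like each member, up to 4 called members of each list with the smallest p, and defining markers. A gene most like Onecut2 is not reported here. The members and lists were chosen with earlier results of these data known. Python 3.11.15 with pandas 2.3.3 and matplotlib 3.10.9 made tables and figures. Intervals and floors cover the error each states and no other.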

Additional observations from a re-analysis of the deposited data

Results flagged for a closer look

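Foxa3 in untreated tumour 6 was at 929, far above the next of its group of 5 (304, 431, 322 and 307 in the other tumours). The gap took 0.797 of the group's range. Over the 36 groups of tumours examined, 1 value stood out this way, and chance alone gives about 1 in 20. The same tumour was the lowest untreated one in Gata6 (82.6), Sox17 (180.3), Foxa1 (17.5), Pax9 (86.4), Onecut2 (13754), Foxa2 (995) and Hnf4a (262), and 16.7% of its reads were acinar. Whether acinar content has a part in these values was not tested.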

How the results depend on the processing

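Of 1989 comparisons of a member's value under an alternative with its main value, 1835 kept direction and side of the threshold, 82 lost a call, 32 gained one and 40 changed sign. None of the sign changes was in a called value. The causes were not tested. Shares of all genes called under each alternative are not given here, so the counts of members below have no such share beside them.

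With the epithelium or the endothelial level as a covariate, 0 members passed in every comparison. The other counts that moved most were, with beta-glucan, 1 with the acinar covariate (Foxa3) and 2 with only the groups compared (Foxa3 and Onecut2). With anti-CD40 the count was 2 with the acinar covariate or edgeR, 5 with equal totals and 1 with only the groups compared (Onecut2). For both agents against beta-glucan it was 5 by edgeR, without Foxa1. For both agents against anti-CD40 it was 5 with DESeq2, 0 with equal totals (with or without the acinar list), without tumours over 30% acinar or with only the groups compared, 1 without trend or robust moderation and 3 with the replicate block.

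Leaving out 1 tumour gave 2 to 4 calls with anti-CD40, 7 to 8 with both agents, 5 to 7 for both agents against beta-glucan, 0 to 5 for both agents against anti-CD40, and 0 with beta-glucan and in the interaction. Signs changed there for Gata6 with beta-glucan (-0.81 to 0.057), against anti-CD40 (-0.64 to 0.042) and in the interaction (-0.47 to 0.40), and for Foxa3 against beta-glucan (-0.17 to 0.56) and against anti-CD40 (-0.74 to 0.19).

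The other sign changes are log2 fold changes. With the epithelium covariate they were, with beta-glucan, Gata6 0.22, Foxa1 0.59, Hnf4a 0.84, Sox9 0.074 and Pax9 0.34. With anti-CD40 they were Hnf4a 0.21 and Pax9 0.082, and with both agents Gata6 0.021 and Foxa3 0.23. For both agents against anti-CD40 they were Gata6 0.057, Foxa3 0.24 and Sox17 0.25. With the endothelial covariate they were, with beta-glucan, Gata6 0.43, Foxa2 0.027, Hnf4a 0.96 and Sox9 0.19. With anti-CD40 they were Gata6 0.068 and Foxa3 0.18, with both agents Gata6 0.37 and Foxa3 0.79, and against anti-CD40 Gata6 0.30 and Foxa3 0.60. With the acinar covariate they were Gata6 0.038 and Foxa1 0.18 with beta-glucan. Foxa3 against beta-glucan was -0.58 with the acinar covariate, -0.41 with equal totals, -0.13 with equal totals without the acinar list and -0.41 without tumours over 30% acinar. In the interaction Gata6 was 0.17 with edgeR and 0.18 with DESeq2, and Sox17 was -0.39 without tumours over 30% acinar.

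Equal totals moved the median of all genes to -0.56 with anti-CD40, -0.45 with both agents, -0.48 against beta-glucan and 0.13 against anti-CD40. The replicate numbers, taken from the sample titles, did not pair tumours (median correlation of deviations 0.03 over 30 same-number pairs, -0.27 to 0.34). Both-agent tumour 5 carries another number in its description and column header, and its title number was used here and in the replicate block. The replicate block gave 4, 0 and 7 calls with anti-CD40, beta-glucan and both agents, 7 for both agents against beta-glucan and 0 in the interaction.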

Other observations

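St8sia3, a sialyltransferase gene and the nearest tested gene upstream of Onecut2, on the same strand of chromosome 18, was at 26.1 ± 17.2 (SD, n = 5) with both agents, against 461 ± 151 (n = 5) untreated. Its log2 fold change was -4.53 (limma adjusted p = 1.12e-05), beside -4.48 for Onecut2, and r between the genes was 0.91 over 22 tumours and 0.65 after group means were subtracted. The other 5 neighbours did not share that size: Txnl1 stood at -0.79 (adjusted p = 0.00198), Nars at -0.79 (adjusted p = 0.0304), Atp8b1 at -0.51 (adjusted p = 0.213), Wdr7 at 0.45 (adjusted p = 0.182) and Fech, the nearest tested gene downstream and the closer of the flanking genes, at 0.25 (adjusted p = 0.551).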
